A study of Mus musculus with 35 samples.

Results

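Total RNA of the mouse hippocampus 24 hours after IAKA (kainic acid, KA, a glutamate receptor agonist, given into the amygdala, where it triggers status epilepticus) was compared with that of mice injected with PBS. The libraries were chosen by assay, group and depth: input (total RNA) libraries of IAKA mice at 24 hours and of PBS mice with at least 100000 counts. This gave 7 of the 35 libraries of the series, each from 1 mouse, namely IAKA mice 67, 98 and 8 and PBS mice 1, 2, 3 and 4. Only PBS mouse 1 was taken at 24 hours, and PBS mice 2, 3 and 4 were taken at 2 weeks, so the effect of IAKA cannot be told apart from any effect of time after surgery except against mouse 1. All were C57BL/6JOlaHsd males of 7 to 9 weeks at the start, with a cannula implanted over the amygdala, and the IAKA mice received lorazepam after the seizures began. The series as a whole holds total RNA and m6A-immunoprecipitated RNA at 24 hours and 2 weeks.

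Status epilepticus is a prolonged seizure that injures hippocampal neurons, above all in the CA3 subfield on the injected side, and is followed by spontaneous seizures. Within a day astrocytes become reactive, building intermediate filaments such as vimentin and GFAP, and microglia and vessels release chemokines and cytokines. Cytokines of the IL-6 family signal through gp130 and the transcription factor STAT3, which induces its own inhibitor Socs3, and interferons signal through STAT and IRF factors to antiviral genes.

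Total counts of the 7 libraries ran from 3507103 (PBS mouse 3) to 12694434 (PBS mouse 1), and levels are given as CPM, counts relative to the TMM-scaled library size. A gene with no count could still hold up to 3 counts, or 0.208 (PBS mouse 1) to 0.897 CPM (PBS mouse 3) on this scale, which covers counting error only. The data columns of IAKA mouse 98 and of the 4 PBS mice do not name the assay, and were read as input because the immunoprecipitated libraries carry a prefix. The library of IAKA mouse 8 stood apart. It came from another library set than the other 6, mitochondrial genes took 17.4% of its counts against 1.62% to 6.45% elsewhere, and 25767 genes were detected in it at 3000000 counts against 17777 to 20779. Its reads also covered 1091 of 1103 olfactory receptor genes (1680 CPM in sum), as did 839 in PBS mouse 1 (465 CPM) and 49 to 122 in the other libraries (194 to 371 CPM). Its rank correlation with the other libraries was 0.84 to 0.90, and theirs with each other 0.94 to 0.99. For this reason the values without mouse 8, over IAKA mice 67 and 98 and the same 4 PBS mice, stand beside the results. The libraries of mice 67 and 98 also differed in composition from those of the PBS mice. Mitochondrial genes took 1.72% and 1.62% of their counts, against 3.44% to 6.45% in PBS mice. The gene Lars2 alone took 23.1% and 21.8%, against 4.29% to 9.99% in PBS mice. The cause was not tested. Hippocampal markers were present in every library, with summed levels of 275 to 431 CPM for 10 dentate granule cell genes and 142 to 236 CPM for 5 CA1 genes.

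The clearest pattern at 24 hours was a rise of astrocyte injury genes, interferon-stimulated genes and genes of the cytoskeleton and cell surface. Of 14155 genes tested, 145 were higher (1.02%) and 15 lower (0.106%) in IAKA than in PBS mice at an adjusted p under 0.05 (edgeR quasi-likelihood test, Benjamini-Hochberg), while 2905 had an unadjusted p under 0.05. The higher genes differed by a log2 fold change of 0.80 to 5.62 (median 1.95) and the lower ones by -1.62 to -0.75 (median -1.05), with a median of 0.09 over all genes tested. In each of the 160 the IAKA and PBS libraries did not overlap, which over all genes tested held for 9.58% (higher) and 9.83% (lower). Scaling by library size alone called 38 higher and 11 lower, so that the higher share of the calls was 77.6% in place of 90.6%.

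Without IAKA mouse 8 many more genes passed, 1488 higher (10.5%) and 746 lower (5.29%) of 14114, and these held all 145 and all 15 of the first calls. With the library set as a block the counts were 1367 and 733. Mouse 8 was alone in its set, so the block also takes it out of the comparison and is not a separate check. Of the 1488, mouse 8 lay above all PBS mice for 699 and below all of them for 368. Of the 746 lower ones, it lay below all PBS mice for 381 and above all of them for 213. Counts of list members called without mouse 8, given below, are to be set against the 10.5% higher and 5.29% lower of all genes. The count over 7 libraries rested on every other library: it fell to 0 with IAKA mouse 67, or PBS mouse 3, or PBS mouse 4 left out, to 3 without PBS mouse 2, to 11 without PBS mouse 1 and to 48 without IAKA mouse 98. At 0 calls, 2861, 1988 and 1972 genes still had an unadjusted p under 0.05. Without mouse 8 it ran from 374 calls (also without mouse 67) to 3665 (also without PBS mouse 1), with 568 without mouse 98, 1227 without PBS mouse 4 and 1332 without PBS mouse 3. With PBS mouse 1 as the only control no gene passed and 432 had an unadjusted p under 0.05. The log2 fold changes against it alone were 0.68 to 5.25 (median 1.91) for the 145 genes and -2.02 to -0.71 (median -1.02) for the 15. PBS mouse 1 was among the controls by which these genes were called. Their direction against it was set by that choice and is no separate check.

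**Figure D1:**
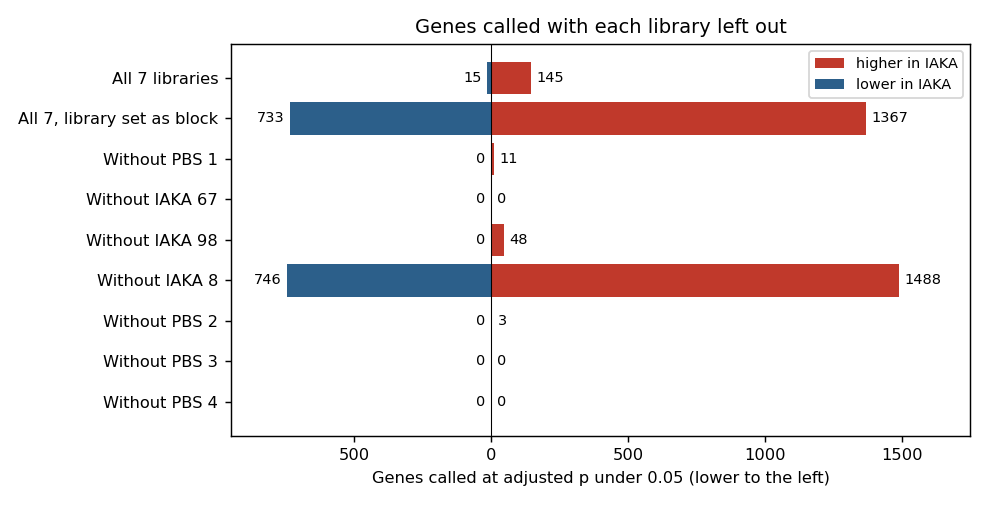
Genes called at an adjusted p under 0.05 in the comparison of IAKA and PBS total RNA (x axis, number of genes, those lower in IAKA drawn to the left), for all 7 libraries, with the library set as a block, and with each library left out (y axis). The bars grow from 145 and 15 to 1488 and 746 without IAKA mouse 8 and shrink to 48 or fewer in all without any other library.

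Reactive astrocyte genes had the highest median of the 53 lists examined. Of 36 tested, 19 were higher and none lower, with a median log2 fold change of 2.28 against 0.09 over all genes, and without mouse 8 the count was 27 of 36 (median 2.44). Serpina3n, a secreted protease inhibitor made by reactive astrocytes, stood at 250, 136 and 74.0 CPM in IAKA mice 67, 98 and 8 and at 14.9, 5.99, 4.18 and 5.55 CPM in PBS mice 1 to 4. The IAKA mice were spread over a wide range, all above the PBS mice, and the log2 fold change was 4.24 (SE 0.55, adjusted p = 0.0219). Vim, which encodes the filament protein vimentin, was at 221, 175 and 76.1 CPM against 22.9, 23.1, 16.7 and 17.6 CPM (log2 fold change 2.96, SE 0.34, adjusted p = 0.0143). Mouse 8 was the lowest of the IAKA mice for both genes.

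Tm4sf1, a membrane protein found on the surface of growing and injured cells, measured 62.3, 33.5 and 38.2 CPM in IAKA mice against 4.51 to 8.58 CPM in PBS mice (log2 fold change 2.75, SE 0.30, adjusted p = 0.0143). Osmr, the receptor subunit for oncostatin M, was tightly grouped at 24.7, 21.4 and 21.9 CPM against 4.71 to 7.78 CPM (1.96, SE 0.21, adjusted p = 0.0143). The pentraxin Ptx3 stood at 21.0, 10.1 and 6.95 CPM against 0.200 to 0.902 CPM (4.54, SE 0.56, adjusted p = 0.0160). Gfap itself, added here after its values were seen, was at 1305, 890 and 212 CPM against 151 to 187 CPM and did not pass over 7 libraries (adjusted p = 0.0737), with mouse 8 close to the PBS mice. Without mouse 8 its log2 fold change was 2.78 (adjusted p = 2.2e-05). Among 23 genes of resting astrocytes (median log2 fold change 0.14) the tight junction gene Cldn10 was the one call over 7 libraries. It fell, with 4.06, 3.10 and 4.12 CPM in IAKA mice and 7.63 to 15.2 CPM in PBS mice (log2 fold change -1.62, SE 0.29, adjusted p = 0.0465). Without mouse 8, 8 of the 23 were higher, Aldh1l1, Atp1b2 and Sox9 among them, and 2 were lower, Cldn10 and Gjb6 (median 0.59). The summed level of these 23 genes was 1465 CPM in mouse 8 and 2939 to 5310 CPM in the other libraries. In bulk RNA, a change in the number of cells of a type and a change in RNA per cell cannot be told apart.

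**Figure D2:**
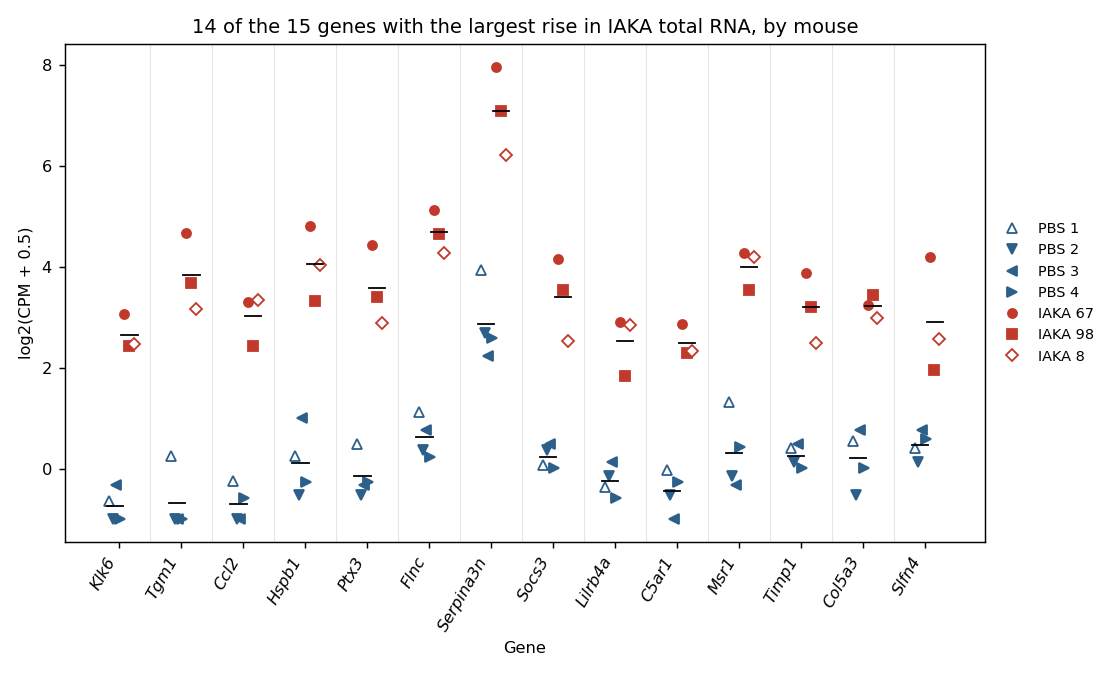
Levels of 14 of the 15 genes with the largest rise in IAKA total RNA (y axis, log2 of CPM plus 0.5; x axis, gene, ordered by log2 fold change) in each mouse, with PBS mice in blue, IAKA mice in red, open symbols for PBS mouse 1 and IAKA mouse 8, and a line at each group's mean. The lowest IAKA mouse lies above the highest PBS mouse for each gene, and IAKA mouse 67 is the highest for Serpina3n at 250 CPM.

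The IL-6 family and STAT3 list gave 4 higher genes of 20 tested and none lower (median log2 fold change 1.04), and 12 of 21 without mouse 8. Among the ligands, Clcf1, which signals through gp130, stood at 4.98, 4.90 and 5.02 CPM against 0.168 to 0.798 CPM (log2 fold change 3.13, SE 0.47, adjusted p = 0.0344). The transcription factor Stat3 was at 94.0, 80.5 and 59.5 CPM against 21.1, 19.2, 18.8 and 20.8 CPM (1.96, SE 0.18), and was among the 5 genes with the smallest p (adjusted p = 0.00887). Its inhibitor Socs3 was at 17.3, 11.1 and 5.28 CPM against 0.504 to 0.897 CPM (4.06, SE 0.48, adjusted p = 0.0143). As for every gene called higher, each IAKA mouse lay above each PBS mouse for Clcf1, Stat3 and Socs3, and for the oncostatin M receptor gene Osmr.

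Of 16 chemokine and chemokine receptor genes tested, 3 were higher and none lower, with a median log2 fold change of 1.58 that was 0.88 without mouse 8. Ccl2, which attracts monocytes, stood at 9.40, 4.90 and 9.65 CPM against 0.347, 0, 0 and 0.168 CPM, the PBS values resting on 6 counts in all (log2 fold change 5.27, SE 0.62, adjusted p = 0.0143). Cxcl10, an interferon-induced chemokine for T cells, was at 6.82, 3.35 and 8.49 CPM against 1.32 CPM in PBS mouse 1 and 0.200 to 0.504 CPM in the others (3.14, SE 0.58, adjusted p = 0.0499). For Cxcl16 the levels were 5.53, 4.39 and 4.89 CPM against 0.598 to 1.85 CPM (2.12, SE 0.39, adjusted p = 0.0499).

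Interferon-stimulated genes followed the astrocyte list. Of 33 tested, 14 were higher and none lower (median log2 fold change 1.68), against 1.02% higher over all genes. In 29 the IAKA levels lay above every PBS mouse, against 9.58% of all genes. Without mouse 8, 23 of 33 were higher (median 1.49), against 10.5% of all genes. The antiviral gene Oasl2 stood at 14.4, 11.1 and 12.9 CPM against 1.87, 2.59, 1.79 and 1.85 CPM (log2 fold change 2.65, SE 0.24, adjusted p = 0.00887). Ifit3 was at 30.2, 35.4 and 26.5 CPM against 5.59 to 8.88 CPM (2.13, SE 0.21, adjusted p = 0.00914), and the guanylate-binding protein Gbp2 at 22.1, 20.9 and 17.2 CPM against 1.85 to 4.48 CPM (2.69, SE 0.30, adjusted p = 0.0143). Usp18, which restrains interferon signalling, was at 5.16, 5.68 and 5.02 CPM against 0.504 to 0.998 CPM (2.74, SE 0.35, adjusted p = 0.0195). The transcription factors Irf1, Irf7 and Irf9 were also higher. Ifit3 and Ifit3b are near-identical copies, so their counts are uncertain.

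Antigen presentation genes did not pass over 7 libraries (0 of 14, median log2 fold change 1.23), with Tap1 at 4.06, 4.39 and 7.46 CPM against 0.672 to 1.94 CPM (adjusted p = 0.0750). Without mouse 8 they gave 8 higher of 16. In the TNF and NF-kB list none of 21 passed (median 0.66), and the receptor gene Tnfrsf1a stood at 12.9, 8.00 and 3.73 CPM against 1.25 to 3.02 CPM (adjusted p = 0.0782). Without mouse 8, 4 of the 21 were higher, against 10.5% of all genes. Of 19 interleukin-1 and Toll-like receptor genes the adaptor Myd88 was higher, at 9.03, 7.23 and 5.66 CPM against 2.02 to 2.85 CPM (log2 fold change 1.57, SE 0.28, adjusted p = 0.0470).

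Cytoskeletal and membrane genes induced by injury made up the third group. The lists share members, so some genes count more than once. Vim and Tm4sf1 are on both the astrocyte and this list, and Gbp2 is on the astrocyte and interferon lists. Of 30 tested, 12 were higher and none lower (median log2 fold change 1.54), and 25 of 32 without mouse 8 (median 1.75). Flnc, which encodes the actin crosslinker filamin C, stood at 34.7, 24.5 and 18.8 CPM against 1.67, 0.798, 1.196 and 0.672 CPM (log2 fold change 4.46, SE 0.35, adjusted p = 0.00887). The calcium-binding protein gene S100a6 was at 12.9, 15.2 and 13.5 CPM against 2.19 to 3.79 CPM (2.27, SE 0.25, adjusted p = 0.0143). Mouse 8 lay within the range of the other IAKA mice for S100a6 and below them for Flnc. Nes, Cd44, Msn, Anxa2, Emp1, Tubb6, Capg and S100a10 were the other members called besides Vim and Tm4sf1.

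The list of the plasminogen system and matrix proteases, which also holds transglutaminases, gave 5 higher genes of 20 and none lower, but its median log2 fold change was 0.58, and Timp1, Klk6, Tgm1 and Adamts1 were among the genes that passed. Timp1, the inhibitor of metalloproteinases, was at 14.2, 8.77 and 5.15 CPM against 0.504 to 0.897 CPM (3.68, SE 0.44, adjusted p = 0.0143). The serine protease gene Klk6 was at 7.93, 4.90 and 5.02 CPM and had 3 counts in the 4 PBS libraries together against 101 in the IAKA libraries, a ratio of rates of 56.6 (95% exact interval 18.8 to 279, counting error only; adjusted p = 0.0143). The transglutaminase Tgm1 had 24.9, 12.4 and 8.49 CPM against 0.694 CPM in PBS mouse 1 and 0 in the others (5.58, SE 0.81, adjusted p = 0.0344).

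Matrix components gave 5 higher genes of 35 and none lower, with a median log2 fold change of 1.21 (18 higher and 1 lower without mouse 8). Hspg2, which encodes the basement membrane proteoglycan perlecan, stood at 21.2, 13.9 and 18.0 CPM against 2.69 to 3.54 CPM (log2 fold change 2.54, SE 0.23, adjusted p = 0.00887). The laminin chain gene Lama5 was at 7.56, 7.48 and 7.08 CPM against 1.34 to 2.40 CPM (2.04, SE 0.29, adjusted p = 0.0295). Itga5, the integrin chain that binds fibronectin, was at 11.8, 8.00 and 6.18 CPM against 0.763 to 1.80 CPM (2.70, SE 0.40, adjusted p = 0.0334), and the collagen gene Col12a1 at 32.3, 19.1 and 29.3 CPM against 8.81 to 11.6 CPM (1.37, SE 0.21, adjusted p = 0.0385). Col5a3 was a collagen with a larger rise, 9.03, 10.3 and 7.46 CPM against 0.200 to 1.196 CPM (3.58, SE 0.45, adjusted p = 0.0160).

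Of 18 genes of activated microglia, 2 were higher, with a median log2 fold change of 1.01, and 12 of 19 without mouse 8. The scavenger receptor Msr1 stood at 19.0, 11.1 and 17.8 CPM against 2.01 CPM in PBS mouse 1 and 0.299 to 0.840 CPM in the others (log2 fold change 3.88, SE 0.51, adjusted p = 0.0216). Spp1, which encodes osteopontin, was at 44.4, 14.97 and 55.6 CPM against 3.96 to 8.07 CPM (2.65, SE 0.45, adjusted p = 0.0455). Homeostatic microglia genes gave no call among 13, with 10 above 0 and a median log2 fold change of 0.29. The 2 members with the smallest p were both lower in IAKA mice, unlike most of the list. The purinergic receptor P2ry12 stood at 6.45, 7.74 and 3.73 CPM against 10.1 to 23.02 CPM (-1.52, SE 0.36, adjusted p = 0.0807). Siglech was at 7.56, 9.55 and 8.37 CPM against 12.9 to 31.8 CPM (-1.33, SE 0.31, adjusted p = 0.0762). Without mouse 8, Cx3cr1, Sall1, Olfml3 and Fcrls were higher and P2ry12 and Siglech lower.

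Complement receptors rose, with 3 of 18 genes of the list higher and none lower (median log2 fold change 0.94). C5ar1 stood at 6.82, 4.39 and 4.50 CPM against 0 to 0.486 CPM (log2 fold change 3.96, SE 0.53, adjusted p = 0.0219). C3ar1 was at 15.5, 7.23 and 11.7 CPM against 2.69 to 4.09 CPM (1.72, SE 0.30, adjusted p = 0.0455), and Itgam, the alpha chain of complement receptor 3, at 56.4, 48.3 and 52.2 CPM against 20.3 to 30.9 CPM (0.95, SE 0.18, adjusted p = 0.0499). Without mouse 8, the list gave 9 higher genes of 17, C1qa, C1qb, C1qc, C3 and C4b among them. The inhibitory receptor Lilrb4a of myeloid cells was at 7.01, 3.10 and 6.69 CPM against 0.168 to 0.598 CPM (4.04, SE 0.50, adjusted p = 0.0160).

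Markers of other cells that injured tissue could hold gave 1 call, but several of their lists had positive medians, with log2 fold changes of 1.18 for leukocyte, 0.97 for endothelial and 0.87 for red blood cell genes. Without mouse 8 these medians were 0.00, 1.12 and 0.23. Of 8 leukocyte genes tested none passed, and the 22 genes of the list summed to 97.2, 76.7 and 253 CPM in IAKA mice 67, 98 and 8 and to 56.5 to 79.3 CPM in PBS mice. The monocyte receptor Ccr2 stood at 17.5, 8.26 and 28.8 CPM against 5.04 to 6.94 CPM (log2 fold change 1.67, SE 0.38, adjusted p = 0.0750). It was the 1 leukocyte gene called of 8 tested without mouse 8, near the 10.5% of all genes. Red blood cell genes summed to 18.4, 12.1 and 53.7 CPM against 7.77 to 16.8 CPM, and mouse 8 was the highest for both lists. Of 13 endothelial markers the cadherin gene Cdh5 was higher, at 13.8, 9.29 and 6.95 CPM against 1.79 to 3.99 CPM (1.93, SE 0.36, adjusted p = 0.0499). Without mouse 8, 5 of the 13 were higher, namely Cdh5, Cldn5, Kdr, Slc2a1 and Mfsd2a. The summed endothelial level was 984, 543 and 1597 CPM against 722 to 1104 CPM, so the groups overlapped. Choroid plexus and ependymal genes summed to 355, 589 and 178 CPM against 283 to 938 CPM, with no call among 11. The part of these cells in the immune and vascular results was not tested.

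**Figure D3:**
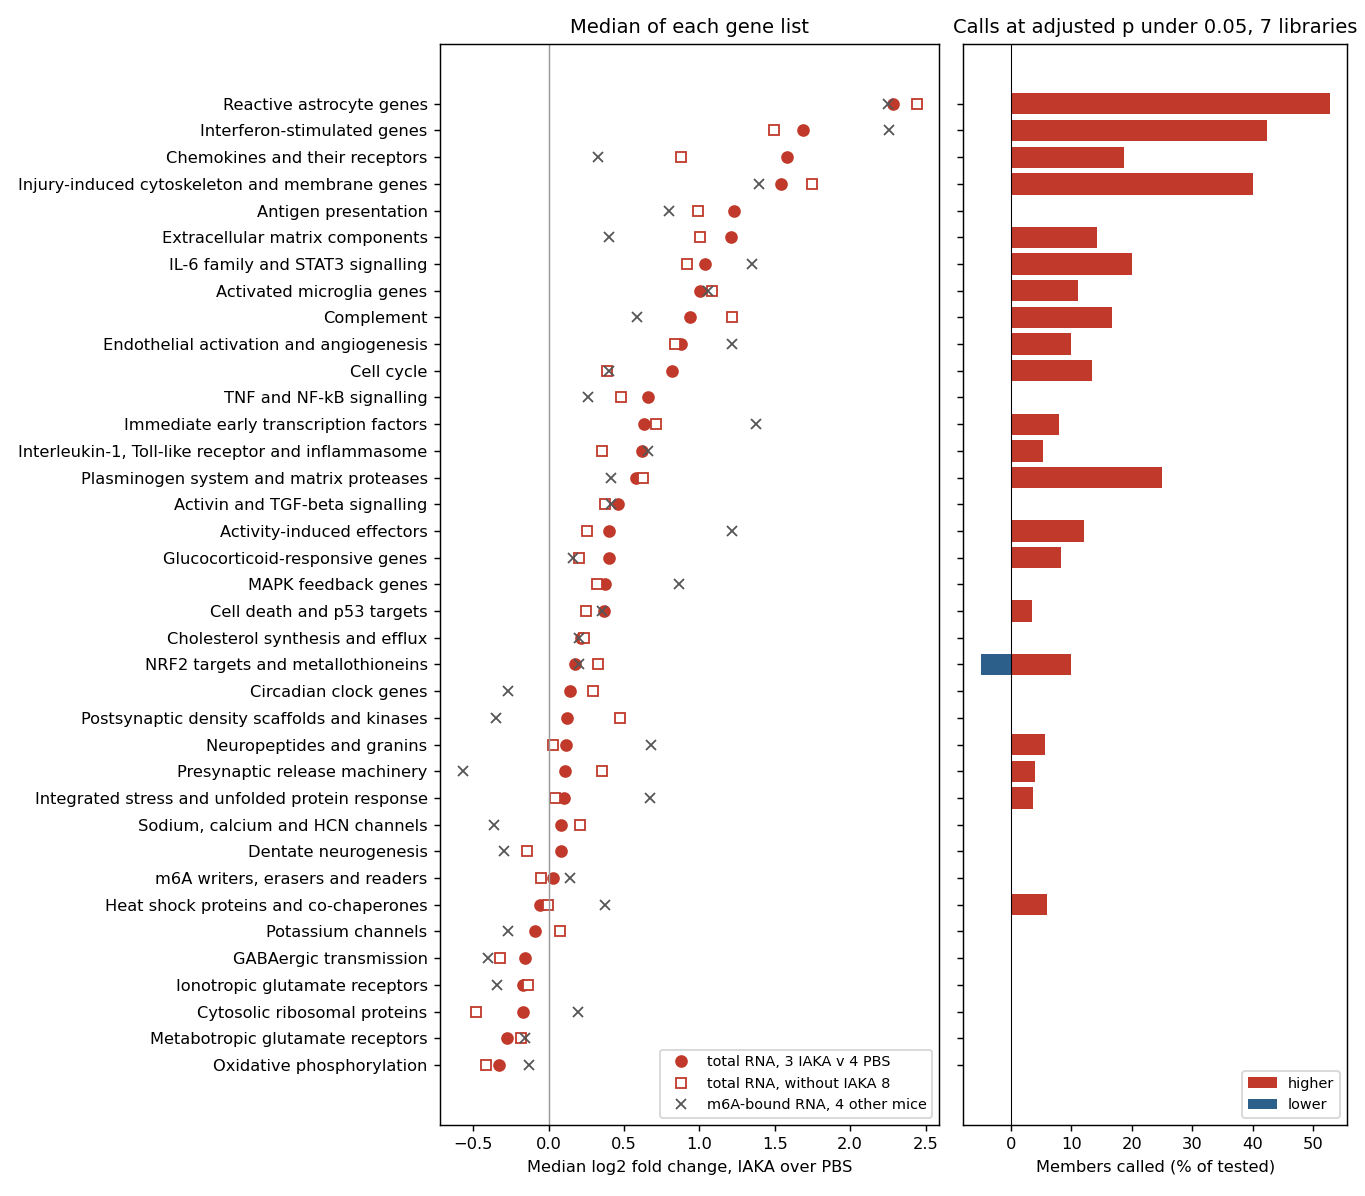
Left, the median log2 fold change of each pathway list (x axis; y axis, list) in total RNA of all 7 libraries, in total RNA without IAKA mouse 8, and in m6A-bound RNA of 4 other mice at 24 hours; right, the share of tested members called higher (red) or lower (blue) at an adjusted p under 0.05 in the 7 libraries. Reactive astrocyte genes (19 of 36 called) and interferon-stimulated genes (14 of 33) lie at the top, and oxidative phosphorylation genes (none of 36) at the bottom.

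Genes that neurons switch on within minutes to hours of firing were measured a day after the seizures. Of 25 early transcription factors and related genes tested, 2 were higher and none lower (median log2 fold change 0.63), and 8 without mouse 8. Csrnp1 stood at 6.27, 3.87 and 7.08 CPM against 0.798 to 1.495 CPM (log2 fold change 2.34, SE 0.36, adjusted p = 0.0367), and Ier5 at 23.2, 27.6 and 27.1 CPM against 11.1 to 14.9 CPM (0.99, SE 0.17, adjusted p = 0.0455). Fos, the best known member and named after its values were seen, was at 22.5, 9.81 and 25.9 CPM against 1.18 CPM in PBS mouse 1 and 2.69 to 8.24 CPM in the 2-week PBS mice, which did not pass (adjusted p = 0.123). None of 14 MAPK feedback genes passed (median 0.37), with Spry1 at 7.74, 6.45 and 3.60 CPM against 2.36 to 2.79 CPM (adjusted p = 0.105).

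Of 25 activity-induced effectors 3 rose and none fell (median log2 fold change 0.40). Nptx2, a neuronal pentraxin that clusters AMPA receptors, stood at 34.1, 27.1 and 47.6 CPM against 6.45, 7.18, 5.38 and 5.88 CPM (log2 fold change 2.54, SE 0.23, adjusted p = 0.00887). The granin-like peptide precursor Vgf was at 81.5, 99.4 and 70.3 CPM against 14.9 to 26.2 CPM (2.06, SE 0.22, adjusted p = 0.0143), and was the one call among 18 neuropeptide genes. Trib1, a pseudokinase, was at 20.5, 13.7 and 15.6 CPM against 3.05 to 6.39 CPM (1.80, SE 0.29, adjusted p = 0.0408). The list of activin and TGF-beta signalling gave no call among 26, and the activin subunit gene Inhba stood at 22.9, 5.68 and 30.1 CPM against 2.71 to 6.72 CPM, with mouse 98 inside the PBS range (2.08, SE 0.54, adjusted p = 0.0992). The vesicle protein gene Sv2c was the one call among 25 genes of presynaptic release, at 117, 70.5 and 55.6 CPM against 28.4 to 33.7 CPM (1.40, SE 0.25, adjusted p = 0.0455). Without mouse 8, 6 of the 25 were higher and 1 lower (median 0.35), against 10.5% and 5.29% of all genes.

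Of the stress lists, each gave 1 to 3 calls. Among 17 heat shock genes (median log2 fold change -0.06) the small heat shock protein gene Hspb1 was higher, at 27.7, 9.55 and 15.8 CPM against 0.200 to 1.495 CPM (log2 fold change 4.78, SE 0.56, adjusted p = 0.0143). Of 20 genes of the NRF2 and metallothionein list 2 rose and 1 fell. Hmox1, which breaks down heme, stood at 13.1, 4.39 and 6.43 CPM against 0.998 to 2.09 CPM (2.62, SE 0.46, adjusted p = 0.0455).

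The metallothionein Mt2, also on the list of glucocorticoid-responsive genes, was at 58.1, 32.5 and 70.7 CPM against 16.2 to 19.7 CPM (1.66, SE 0.25, adjusted p = 0.0364). Gstm5, a glutathione transferase, was lower at 23.2, 24.5 and 32.4 CPM against 52.7 to 86.7 CPM (-1.34, SE 0.22, adjusted p = 0.0408). The stress-response gene Nupr1 was the one call among 27 genes of the integrated stress and unfolded protein response, at 13.8, 12.4 and 23.4 CPM against 3.39 to 5.08 CPM (1.91, SE 0.28, adjusted p = 0.0334). Fas, a death receptor, was the one call among 29 cell death genes, at 4.06, 2.84 and 3.48 CPM against 0.504 to 0.897 CPM (2.17, SE 0.37, adjusted p = 0.0455).

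Of 15 cell cycle genes, the replication helicase subunits Mcm3 and Mcm2 were higher. Mcm3 stood at 10.3, 10.1 and 9.39 CPM against 0.897 to 2.50 CPM (log2 fold change 2.49, SE 0.37, adjusted p = 0.0334), and Mcm2 at 7.93, 6.97 and 8.24 CPM against 1.60 to 2.77 CPM (1.79, SE 0.28, adjusted p = 0.0383). None of 7 genes of dentate neurogenesis passed. Hbegf, a growth factor of the EGF family, was the one call among 10 genes of endothelial activation and angiogenesis, at 25.4, 19.4 and 12.1 CPM against 3.12 to 6.22 CPM (2.07, SE 0.33, adjusted p = 0.0408). The oligodendrocyte transcription factor Myrf was at 41.7, 33.0 and 27.1 CPM against 11.8 to 17.0 CPM (1.22, SE 0.22, adjusted p = 0.0455), while the median of the 14 myelin genes was -0.45. Slfn4, of the schlafen family and the last of the 15 largest rises, was at 17.9, 3.35 and 5.41 CPM against 0.599 to 1.196 CPM (3.30, SE 0.61, adjusted p = 0.0499), its mean carried by mouse 67.

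The 15 lower genes had smaller fold changes than the higher ones at the median. Kctd4 fell the most clearly, from 46.7, 40.7, 59.2 and 55.5 CPM in PBS mice to 14.4, 16.8 and 19.1 CPM in IAKA mice (log2 fold change -1.59, SE 0.19, adjusted p = 0.0159). Reads of the symbol Cdr1 stood at 354, 301 and 391.7 CPM against 1378, 884, 967 and 775 CPM (-1.52, SE 0.27, adjusted p = 0.0455). Whether strand was used in counting is not given, so Cdr1 and a transcript antisense to it cannot be told apart. The cell adhesion genes Pcdh20 and Cdh9 fell together. Pcdh20 was at 42.6, 33.0 and 23.04 CPM against 69.2 to 91.6 CPM (-1.22, SE 0.23, adjusted p = 0.0499), and Cdh9 at 23.1, 17.3 and 19.2 CPM against 40.1 to 46.6 CPM (-1.11, SE 0.16, adjusted p = 0.0308).

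Ptn, which encodes the secreted growth factor pleiotrophin, was at 143, 150 and 113 CPM against 247 to 281 CPM (log2 fold change -0.97, SE 0.16, adjusted p = 0.0441). The endocytic adaptor gene Eps15 was at 187, 177 and 170 CPM against 309 to 330 CPM (-0.85, SE 0.14, adjusted p = 0.0441), and the synaptotagmin gene Syt14 at 23.6, 23.7 and 22.6 CPM against 37.4 to 41.9 CPM (-0.75, SE 0.14, adjusted p = 0.0473). These 3 genes varied little within either group. The zinc finger gene Zfp182 was at 7.01, 7.74 and 7.33 CPM against 14.8 to 24.5 CPM (-1.35, SE 0.21, adjusted p = 0.0391). Cep70, Arhgap5, Fam213a, B3galt2 and Rnf13 completed the lower genes besides Cldn10 and Gstm5, with log2 fold changes from -1.05 to -0.78.

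**Figure D4:**
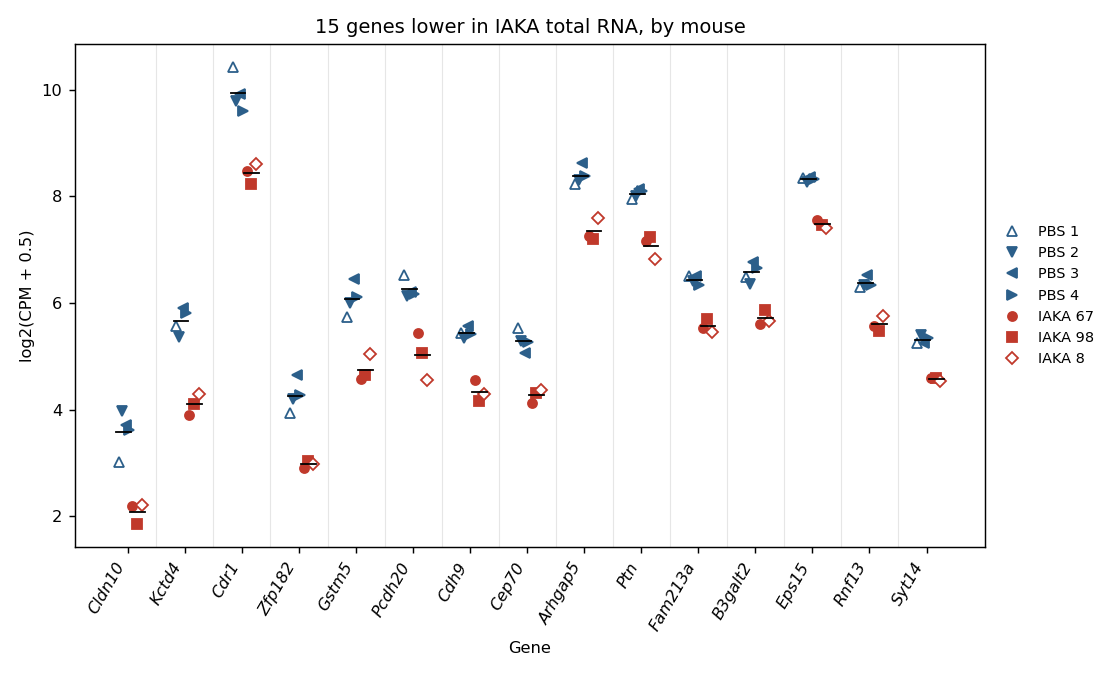
Levels of the 15 genes lower in IAKA total RNA (y axis, log2 of CPM plus 0.5; x axis, gene, ordered by log2 fold change) in each mouse, with PBS mice in blue, IAKA mice in red, open symbols for PBS mouse 1 and IAKA mouse 8, and a line at each group's mean. The highest IAKA mouse lies below the lowest PBS mouse for each gene, and Cdr1 has the highest levels, 1378 CPM in PBS mouse 1.

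Genes of synaptic inhibition, glutamate receptors and the postsynaptic density gave no call over 7 libraries. The median log2 fold change was -0.16 for 22 GABAergic genes, -0.17 for 15 ionotropic glutamate receptor genes and -0.28 for 7 metabotropic ones, against 0.09 over all genes tested. Gabra4, a GABA-A receptor subunit gene, was at 41.7, 48.8 and 61.5 CPM against 74.6 to 92.8 CPM (log2 fold change -0.71, SE 0.18, adjusted p = 0.0845). Without mouse 8, 5 of the 22 GABAergic genes were lower, Gabra4, Gabra5 and Gabrg1 among them, and Gabbr2 was higher. Of 21 postsynaptic density genes (median 0.12), 9 were higher and Nlgn1 lower without mouse 8, the Shank scaffold genes among the higher ones. Ionotropic receptor genes gave 2 higher and 1 lower of 15 in that fit, and metabotropic ones 1 lower of 7. Over all genes in that fit 10.5% were higher and 5.29% lower, so the counts of the 2 glutamate receptor lists lie near those shares.

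Ion channel genes gave no call among 36 potassium channel genes (median log2 fold change -0.09) or 30 sodium, calcium and HCN channel genes (0.08). The sodium channel gene Scn1a stood at 125, 127 and 124 CPM against 184 to 258 CPM (-0.76, SE 0.16, adjusted p = 0.0680). Without mouse 8 the channel lists were split, with 7 higher and 3 lower in each, against 10.5% higher and 5.29% lower over all genes.

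Interneuron markers gave no call among 11 and were split, with 5 above and 6 below 0 (median log2 fold change -0.02). Erbb4, a receptor of interneurons, was at 57.9, 78.2 and 65.5 CPM against 108 to 124 CPM (-0.79, SE 0.15, adjusted p = 0.0535). Nos1, the neuronal nitric oxide synthase, moved the other way, at 74.3, 67.6 and 58.3 CPM against 32.0 to 47.2 CPM (0.79, SE 0.18, adjusted p = 0.0795). The groups did not overlap for either gene, and without mouse 8 Nos1 was called higher and Erbb4 lower.

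Subfield markers did not pass in any list over 7 libraries, with medians of 0.07 for 5 CA1 genes, -0.14 for 8 CA2 and CA3 genes and -0.20 for 10 dentate granule cell genes. Trpc6, of the dentate list, stood at 15.5, 10.3 and 25.9 CPM against 32.4 to 36.5 CPM (-1.001, SE 0.28, adjusted p = 0.114). Pdzd2, of the same list, was at 48.1, 55.2 and 40.5 CPM against 21.3 to 38.9 CPM (0.80, SE 0.23, adjusted p = 0.122). Without mouse 8, Trpc6 (adjusted p = 0.00176), Lct and Tdo2 were lower and Pdzd2 higher (adjusted p = 0.0205) of the 10 dentate genes, and Iyd was lower of 7 CA2 and CA3 genes. Housekeeping groups had negative medians as well, -0.33 for 36 oxidative phosphorylation genes and -0.17 for 42 ribosomal protein genes, with no call in either over 7 libraries. Without mouse 8, 8 of the 36 were lower (median -0.41), and 10 of the 42 were lower and Rpl27 higher (median -0.48), against 5.29% lower over all genes. Mouse 8 had the highest summed ribosomal level, 13190 CPM against 4423 to 9404 CPM in the other libraries. Cholesterol genes (median 0.22 over 21) and clock genes (0.14 over 17) gave none over 7 libraries, and 6 and 4 higher genes without mouse 8. Over all genes 10.5% were higher without mouse 8. The Y-linked gene Ddx3y was present in all 7 libraries of these male mice, at 48.0 to 61.6 CPM in IAKA and 81.6 to 99.8 CPM in PBS mice (adjusted p = 0.0756). The 4 sex genes tested were split over 7 libraries, 2 above and 2 below 0. In the fit without mouse 8, 3 of the 4 were lower (median -0.66), against 5.29% of all genes. Ddx3y (adjusted p = 0.0109) and Eif2s3y (adjusted p = 0.0270) were among them. The cause was not tested. The sex genes summed to 818.5 CPM in mouse 8 and 224 to 379 CPM in the other libraries.

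The m6A enzymes and readers gave no call among 19 genes (median log2 fold change 0.03), over 7 libraries or without mouse 8. The methyltransferase gene Mettl3 stood at 20.8, 12.1 and 129 CPM in IAKA mice 67, 98 and 8 against 12.4 to 25.1 CPM in PBS mice, so that its log2 fold change (1.52, SE 0.72, adjusted p = 0.276) rested on mouse 8 and was -0.19 without it (adjusted p = 0.701). For its partner Mettl14 the levels were 26.4, 31.0 and 37.2 CPM against 28.5 to 33.0 CPM (0.08, SE 0.17, adjusted p = 0.791). For the demethylase gene Fto the log2 fold change was 0.18 (SE 0.20, adjusted p = 0.613) and for Alkbh5 it was 0.10 (SE 0.21, adjusted p = 0.803). Wtap, which recruits the methyltransferase, had -0.45 (SE 0.25, adjusted p = 0.327), and the reader genes had 0.17 (SE 0.17, adjusted p = 0.580) for Ythdf1 and 0.16 (SE 0.15, adjusted p = 0.548) for Ythdf2.

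Mice that entered neither the fit of 7 libraries nor that without mouse 8 offered a second look at the called genes. IAKA mice 97 and 79 and PBS mice 71 and 73, all at 24 hours and of another library set, have m6A-immunoprecipitated libraries of 13466612 to 31989906 counts. This is a different readout, since the level there depends on the transcript and on its methylation, which cannot be told apart. Of the 145 higher genes, 139 (95.9%) had a positive log2 fold change in the m6A libraries, against 49.4% of all 14114 genes tested in both. In 126 of the 145 both IAKA mice lay above both PBS mice, a pattern found for 27.4% of all genes, and the reverse occurred for none against 25.6%. By the same edgeR test within the m6A libraries, 52 of the 145 were higher at an adjusted p under 0.05 and none lower. Over all 16903 genes tested there, 248 were higher. Of the 15 lower genes, 14 had a negative log2 fold change and 12 had both IAKA mice below both PBS mice. The median log2 fold change was 1.82 for the higher genes and -0.67 for the lower ones.

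For Serpina3n the m6A levels were 420 and 354 CPM in IAKA mice 97 and 79 and 61.6 and 20.8 CPM in PBS mice 71 and 73. Nptx2 stood at 62.5 and 122 CPM against 5.09 and 6.95 CPM, and Ifit3 at 118 and 512 CPM against 24.8 and 14.2 CPM. Both IAKA mice were well above the PBS mice for these genes, with mouse 79 higher than 97 for Ifit3. Kctd4 was at 23.4 and 51.1 CPM against 85.1 and 54.5 CPM. For Slfn4 the groups overlapped, at 2.94 and 8.52 CPM against 13.2 and 0.474 CPM, as they did for Hspg2 at 21.7 and 14.5 CPM against 9.13 and 16.5 CPM. Inhba, which had missed the threshold in total RNA, stood at 252 and 780 CPM against 10.3 and 12.8 CPM. Of these genes only Nptx2 passed the edgeR test within the m6A libraries (adjusted p = 0.0166). The adjusted p there was 0.0872 for Serpina3n, 0.160 for Ifit3, 0.334 for Kctd4 and 0.0541 for Inhba.

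The medians of the lists in these other mice were 2.25 for reactive astrocyte genes, 2.26 for interferon-stimulated genes and 1.40 for injury-induced cytoskeletal genes, against a median near 0 over all genes. Early transcription factors had a median of 1.38 and activity-induced effectors of 1.22, against 0.63 and 0.40 in total RNA. Not all lists moved alike. Chemokine genes had a median of 0.33 in the m6A libraries (26 tested) against 1.58 in total RNA (16 tested), or 0.88 without mouse 8. Leukocyte genes had one of -0.10 (12 tested) against 1.18 (8 tested), or 0.00 without mouse 8. Several neuronal lists lay lower in the m6A libraries. Both IAKA mice were below both PBS mice for 17 of 25 presynaptic genes (median -0.57), against 25.6% of all genes. The same held for 13 of 15 ionotropic glutamate receptor genes (-0.34) and 13 of 22 GABAergic genes (-0.40). In total RNA the ionotropic and GABAergic medians were negative as well, -0.17 and -0.16. The presynaptic median was 0.11 there, and 0.35 without mouse 8. Excitatory neuron markers had medians of 0.20 in total RNA, 0.47 without mouse 8 and -0.57 in the m6A libraries. Whether these lists differed between the kinds of library was not tested.

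**Figure D5:**
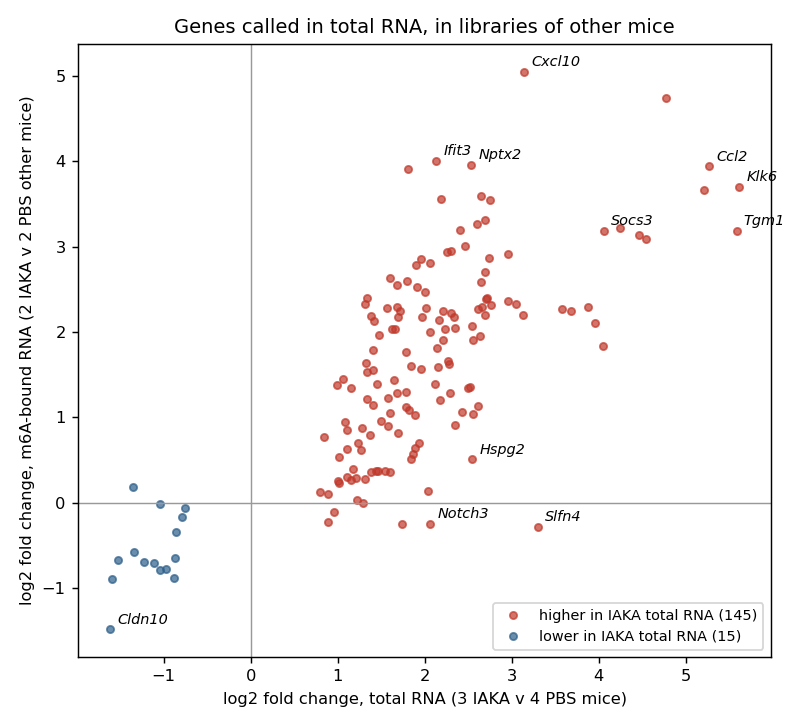
Log2 fold change of IAKA over PBS for the 160 genes called in total RNA, in total RNA of the 7 mice (x axis) and in m6A-bound RNA of 4 other mice at 24 hours (y axis), each point a gene, red for the 145 higher and blue for the 15 lower genes. Of the red points 139 lie above 0 on the y axis and 14 of the blue ones below it, and Slfn4 is an exception at 3.30 and -0.28.

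A promoter sequence was held for 109 of the 145 higher genes (75.2%), too few for a comparison of motif shares, which is therefore void. The letters TGAGTCA (AP-1, either strand) stood in 14 of the 109 promoters, in 1 of 12 of the lower genes and in 5.17% of all 27025 promoters of the same length. TGACGTCA (CRE) stood in none of the 109 and TTCCNGGAA (STAT3) in 1, against 1.88% and 1.15% of all promoters. Cxcl10 and Gbp2, both on the list of reactive astrocyte genes and both higher in IAKA mice, held the AP-1 letters, and their promoters are shown as examples, from 250 bases before to 50 after the start, RefSeq, build GRCm38.p6, 5′ to 3′ on the strand of the gene, with the AP-1 letters in capitals. The Cxcl10 promoter is at chr5:92348840-92349139 on the minus strand and the Gbp2 promoter at chr3:142620413-142620712 on the plus strand.
Cxcl10: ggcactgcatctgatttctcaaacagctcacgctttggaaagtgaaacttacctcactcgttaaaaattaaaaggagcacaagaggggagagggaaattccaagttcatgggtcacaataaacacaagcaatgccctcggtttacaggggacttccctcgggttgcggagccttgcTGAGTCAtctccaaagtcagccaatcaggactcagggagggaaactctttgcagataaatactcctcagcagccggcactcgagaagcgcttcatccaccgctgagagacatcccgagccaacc
Gbp2: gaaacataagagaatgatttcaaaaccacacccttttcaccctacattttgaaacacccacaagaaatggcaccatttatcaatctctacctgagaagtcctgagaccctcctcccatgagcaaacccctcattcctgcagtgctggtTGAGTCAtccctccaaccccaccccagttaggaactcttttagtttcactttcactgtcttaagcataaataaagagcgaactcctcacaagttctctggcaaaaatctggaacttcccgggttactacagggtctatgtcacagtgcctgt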

How the data were processed

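The authors deposited raw read counts per gene and sequencing lane for 32544 genes, and per the submitters' processing notes the genome build was mm10; which aligner and counter were used, and whether by strand, is not given in the sources used here. RNA was extracted with TRIzol and libraries were made with a SMARTer stranded total RNA kit. The 4 lanes of each library were summed (80 columns, 20 libraries), and 8 columns that match no sample were not used. Input libraries under 100000 counts (IAKA mouse 97, PBS mice 71 and 73; 3171 to 34486 counts) were left out. Column names without the prefix of immunoprecipitated libraries were read as input. Low genes were filtered with filterByExpr, counts were scaled by TMM, and groups were compared with the quasi-likelihood test of edgeR 4.0.16 (R 4.3.3), adjusted by Benjamini-Hochberg at 0.05. The script was tested on simulated data. DESeq2 1.42.0 and limma 3.58.1, other scalings and filters, and leaving out each library were alternatives. Each library is 1 mouse. Named genes were the 15 with the largest change in each direction among called genes whose groups did not overlap, up to 4 called members of each list by p, up to 2 members of lists without a call, the 5 genes with the smallest p, and 7 m6A genes; the text gives those it needs, and others, such as members named for a call without IAKA mouse 8, were chosen after their values were seen. The libraries, the 53 gene lists and the tests were chosen with earlier results of these data known. A few genes are not reported here, and 1 of them was left out of the plot of the genes with the largest rise.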

Additional observations from a re-analysis of the deposited data

Results flagged for a closer look

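In 129 genes named by rule, the 4 PBS libraries were searched for a library that lay apart from the others by Dixon's test at its 95% critical value, which flags about 1 in 20 groups by chance, and 10 genes were found. PBS mouse 1 was the highest for Serpina3n (14.9 CPM), Mettl14 (33.0 CPM) and Tgm1 (0.694 CPM) and the lowest for Grm7 (59.9 CPM). PBS mouse 3 was the highest for Mt2 (19.7 CPM), Rnf13 (92.1 CPM) and Uqcrq (55.0 CPM). PBS mouse 2 was the highest for Oasl2 (2.59 CPM) and the lowest for Foxj1 (0.599 CPM), and PBS mouse 4 the highest for Ptprc (15.1 CPM). The 3 IAKA libraries were not tested in this way.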

How the results depend on the processing

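No paired analysis was possible because the IAKA and PBS libraries came from different mice. Against 160 calls, DESeq2 made 835 and limma voom 3388, library size alone 49, a mean of at least 10 counts 67, a fit of all 13 deep input libraries 416, the 3 shallow libraries added 385, PBS mouse 1 alone 0 (432 at an unadjusted p under 0.05), and the library set as a block 2100. The block gave IAKA mouse 8, alone in its set, a term of its own, much as leaving mouse 8 out does. An adjusted p of 0.01 left 7 and one of 0.10 gave 716. Leaving out 1 library gave 0 to 2234 calls. Library size alone moved the median of all genes from 0.09 to -0.12. None of the 160 genes turned its direction where tested, and 38 were not tested with the shallow libraries added. For each of the 160 the IAKA and PBS libraries did not overlap. Leaving out a library could therefore hardly turn a direction, and this is no separate check. Without IAKA mouse 8, 2234 genes were called, 3802 by limma voom and 374 to 3665 with 1 more library left out, and library size alone called 852 higher and 959 lower. In the m6A libraries edgeR called 356 and DESeq2 1267. Of the 53 list medians, 22 changed sign under some alternative, ranging from -0.15 to 0.42 for CA1, -0.57 to 0.057 for dentate, -0.11 to 0.24 for sodium, calcium and HCN channel, -0.27 to 0.075 for potassium channel, -0.33 to 0.001 for CA2 and CA3, -0.049 to 0.30 for clock and -0.20 to 0.08 for m6A genes, among others. Among named genes that did not pass, 7 turned. The log2 fold change of Alkbh5 was -0.073 by library size alone and -0.072 to 0.23 with 1 library left out. The log2 fold change of Fto was -0.017 by library size alone and -0.20 with PBS mouse 1 alone, where the log2 fold change of Kcne2 was 0.73. The log2 fold change of Mettl14 was -0.14 by library size alone, -0.10 with PBS mouse 1 alone, -0.063 with the block, -0.005 by limma voom and -0.052 to 0.19 with 1 library left out. The log2 fold change of Mettl3 was -0.20 with the block and -0.19 to 1.98 with 1 library left out. By library size alone the log2 fold change of Ythdf1 was -0.038 and the log2 fold change of Ythdf2 -0.041. The causes were not tested. The fit without IAKA mouse 8 and its alternatives, those of the m6A libraries, and leaving out the 10 most abundant genes of any library (170 calls) were chosen after seeing the data. Low genes are limited by depth, as with Klk6 at 3 counts in all PBS libraries.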
